A study of Mus musculus with 19 samples.

Results

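Prnp and Sprn, the prion family genes with appreciable expression in these slices, are 2 of the 20436 genes in the RNA and ribosome profiling count tables. They were selected by gene symbol from earlier results of these same libraries, in which Sprn was among the largest increases in ribosome-protected fragments after DHPG, and Prnp was taken as its relative. The levels, the ratio of ribosome-protected fragments to RNA and the difference between DHPG and basal slices are therefore given for both genes as a description, with no test.

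Hippocampal slices came from wild-type male mice on a C57BL/6J background, aged 28 to 42 days in the sample labels, and each replicate pooled the slices of 6 mice. Slices received vehicle (artificial cerebrospinal fluid, the basal group) or 100 µM DHPG for 5 min, and every group then received cycloheximide at 100 µg/ml, which stops elongating ribosomes. DHPG is an agonist of group 1 metabotropic glutamate receptors such as mGluR5, and in slices it induces a long-term depression that needs protein synthesis. RNA-seq covered 4 basal replicates and 5 DHPG replicates, and ribosome profiling, which sequences the stretches of mRNA that a ribosome covers (ribosome-protected fragments, RPFs), covered 5 of each. Libraries with the same replicate number are called a pair and are taken to be of the same batch, which the labels do not state. DHPG RNA replicate 5 has no basal partner. The methods state that area CA3 was kept in the slices of batches 1 to 5. If these are replicates 1 to 5, the libraries hold more than the CA1 region.

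The prion protein encoded by Prnp is a glycoprotein held on the outer face of the plasma membrane by a glycosylphosphatidylinositol (GPI) anchor. It is abundant in neurons, binds copper through a run of repeats near its N terminus, and is the substrate of the conformational change that underlies prion disease. Sprn encodes Shadoo, a smaller GPI-anchored protein of the brain that shares with the prion protein an alanine- and glycine-rich hydrophobic stretch. Prnd encodes Doppel, the relative with a prion-like C-terminal fold, which is found mainly in testis.

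Prnp (ENSMUSG00000079037.9) lies on chromosome 2 of mm10 from 131909928 to 131938429 on the plus strand, and its coding sequence lies wholly in exon 3 of 3, from 131936430 to 131937194. Sprn (ENSMUSG00000045733.7) lies on chromosome 7 from 140150628 to 140154877 on the minus strand, with its coding sequence in exon 2 of 2, from 140153214 to 140153657. The Prnp coding sequence has 765 bases and 254 codons before the stop codon, with 59.2% GC. That of Sprn has 444 bases and 147 codons, with 68.0% GC, which places it at percentile 98.9 of 19520 coding sequences in GC content and at percentile 7.19 in length. Most of the Sprn transcript is not coding, with 2586 of its 3374 bases after the stop codon, against 1235 of 2184 bases for Prnp.

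The part of the coding sequence that the family members share is shown first, in the coding direction, with 30 bases on either side. Capitals mark the longest run of codons for alanine, glycine, valine and leucine, which has 16 codons in Prnp (codons 111 to 126) and 19 in Sprn (codons 62 to 80). Both sequences were read from the GENCODE transcripts for mm10.
Prnp, chr2:131936730-131936837, plus strand: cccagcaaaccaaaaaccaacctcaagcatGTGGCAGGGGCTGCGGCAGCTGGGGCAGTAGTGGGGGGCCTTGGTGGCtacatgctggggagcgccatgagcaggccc
Sprn, chr7:140153388-140153504, minus strand: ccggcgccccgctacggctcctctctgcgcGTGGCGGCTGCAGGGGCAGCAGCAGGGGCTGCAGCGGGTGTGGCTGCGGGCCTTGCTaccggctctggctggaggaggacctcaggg

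The run in Sprn held 12 alanine, 4 glycine, 2 valine and 1 leucine codons, and that in Prnp 6, 6, 3 and 1, with a GC content of 75.4% and 75.0%. In a local alignment of the translated coding sequences, 18 of 59 aligned residues were identical (30.5%), from residue 77 to 135 of the prion protein and from residue 29 to 87 of Shadoo. Over the whole coding sequence alanine took 18.4% of the codons of Sprn and 3.9% of those of Prnp, and arginine 10.2% and 4.3%. Glycine was frequent in both, with 19.7% and 16.1%.

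The copper-binding repeats of Prnp are shown because they separate the relatives: 4 consecutive units of 24 bases were found in Prnp and 0 in Sprn. Capitals mark the bases that differ from the first unit.
Prnp repeat 1, chr2:131936604-131936627, plus strand: ccccacggtggtggctggggacaa
Prnp repeat 2, chr2:131936628-131936651, plus strand: ccccaTggGggCAgctggggacaa
Prnp repeat 3, chr2:131936652-131936675, plus strand: ccTcaTggtggtAgTtggggTcaG
Prnp repeat 4, chr2:131936676-131936699, plus strand: ccccaTggCggtggAtggggCcaa

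Units 2, 3 and 4 differed from the first at 4, 6 and 4 bases. The repeats of Prnp and the hydrophobic stretches of both genes lie in coding sequence over which RPFs were counted, since the counting left out only 30 nucleotides at either end.

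Total counts ran from 4870813 to 7793244 in the RNA libraries and from 5692064 to 22092434 in the RPF libraries. Prnp took 1999 to 3811 counts in an RNA library and 5583 to 19401 in an RPF library, and Sprn took 402 to 627 and 661 to 1904. Neuron, CA1, CA3 and dentate gyrus markers had counts in every group, with a summed level of 8337 to 9269 CPM (counts scaled to library size) for 5 neuron markers in RPF. Prnp and Sprn levels below are CPM after edgeR's TMM scaling, computed separately for RNA and for RPF, and in pooled tissue fewer cells of a type and less RNA per cell cannot be told apart.

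Prnp was among the most abundant mRNAs of the slices in both assays. In basal RNA it had 457, 412, 363 and 437 CPM in replicates 1 to 4 (mean 417 ± 40.6, SD, n = 4), and in DHPG RNA 492, 415, 388, 467 and 469 CPM in replicates 1 to 5 (446 ± 43.0, SD, n = 5). In basal RPF it had 931, 822, 881, 847 and 821 CPM (860 ± 46.3, SD, n = 5), and in DHPG RPF 994, 937, 840, 993 and 879 CPM (929 ± 68.7, SD, n = 5). The groups overlapped in both assays. Replicate 3 was the lowest of its group in basal RNA, DHPG RNA and DHPG RPF.

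Sprn was expressed at a lower level and varied more between replicates. In basal RNA it had 69.1, 93.3, 96.8 and 60.1 CPM (79.8 ± 18.0, SD, n = 4), and in DHPG RNA 67.0, 82.9, 99.4, 66.3 and 82.4 CPM (79.6 ± 13.7, SD, n = 5). In basal RPF it had 104, 64.7, 86.4, 102 and 113 CPM (93.8 ± 18.8, SD, n = 5), and in DHPG RPF 118, 94.6, 87.3, 122 and 138 CPM (112 ± 20.7, SD, n = 5). Sprn RNA was highest in replicates 2 and 3 of the basal slices, and these 2 replicates had the lowest Sprn RPF. The RPF groups overlapped, since basal replicates 1, 4 and 5 lay above DHPG replicates 2 and 3.

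**Figure D1:**
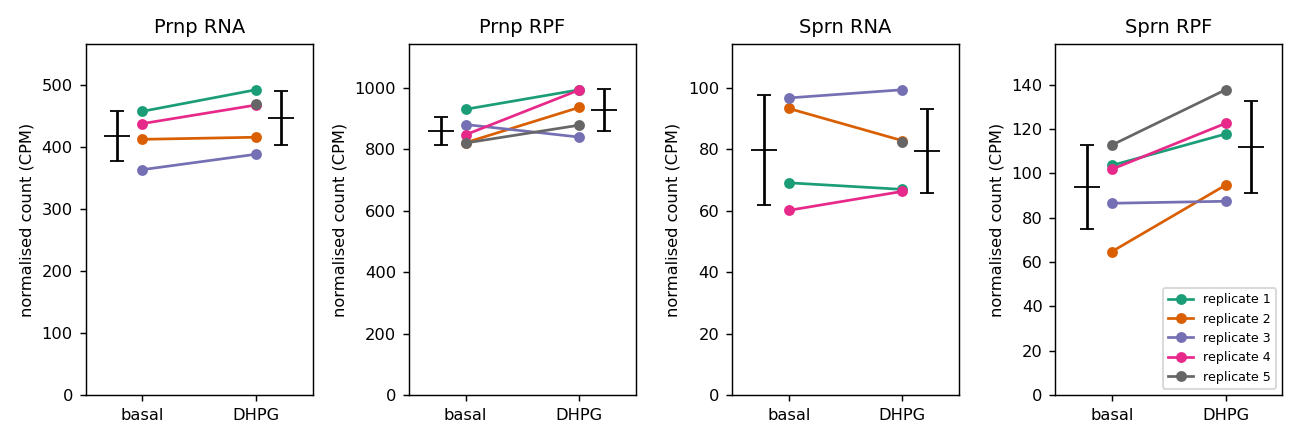
Normalised counts (CPM, linear axes from 0) of Prnp and Sprn in every RNA and RPF library. Coloured points are replicates 1 to 5, lines join the libraries of a pair, and black bars beside them give the mean and SD of each group; Sprn RPF lies higher after DHPG in each of the 5 pairs, from 86.4 and 87.3 CPM in pair 3 to 64.7 and 94.6 CPM in pair 2.

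For a comparison between the genes, levels were divided by length, using the whole transcript for RNA and the counted coding sequence for RPF. Basal Prnp RNA then stood at 191 CPM per kb, rank 284 of 12475 genes (percentile 97.7), and basal Sprn RNA at 23.7 CPM per kb, rank 3137 (percentile 74.9). Basal Prnp RPF stood at 1220 CPM per kb, rank 99 of 12724 genes (percentile 99.2), and basal Sprn RPF at 244 CPM per kb, rank 801 (percentile 93.7). Per kb, Prnp exceeded Sprn by 8.07-fold in RNA and by 4.99-fold in RPF. Both genes thus stood higher in the order of genes by RPF than by RNA, and Sprn moved further.

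The translational efficiency (TE) of a gene is given here as its log2 RPF CPM less its log2 RNA CPM in the same basal replicate. Prnp had a basal TE of 1.03, 0.996, 1.28 and 0.95 in replicates 1 to 4 (mean 1.06 ± 0.15, SD, n = 4), at percentile 88.4 of 12691 genes, where the median gene had -0.18. Sprn had 0.58, -0.53, -0.17 and 0.75 (0.16 ± 0.61, SD, n = 4), at percentile 63.3. The value of Sprn was below 0 in replicates 2 and 3 and above 0 in replicates 1 and 4. Its mean was 0.019, 0.39, 0.27 and -0.039 without replicates 1, 2, 3 and 4, so its size depended on which replicates were used. RNA and RPF were scaled separately, so 0 is no fixed reference on this scale and the sign is not read. After DHPG the TE was 1.06 ± 0.10 for Prnp and 0.48 ± 0.47 for Sprn (SD, n = 5). These means take in replicate 5, which has no basal TE, so they cover other replicates than the basal means.

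The order of the genes by basal TE depends on whether length is taken into account. RPFs were counted on 705 bases of Prnp and 384 bases of Sprn but RNA on whole transcripts, so the long noncoding part of Sprn adds to its RNA count alone. On the CPM scale the TE of Sprn lay below that of Prnp in every replicate, with differences (Sprn minus Prnp) from -1.53 to -0.20 and a mean of -0.90 ± 0.68 (SD, n = 4). Per length the mean TE was 3.29 for Sprn, percentile 92.5 of 12230 genes, and 2.69 for Prnp, percentile 87.0, against a median of 0.89 over all genes. The mean difference per length was 0.60 in favour of Sprn, with an SD of 0.68 between replicates. Per length Sprn had 3.71, 2.60, 2.97 and 3.89 in basal replicates 1 to 4, and Prnp had 2.66, 2.63, 2.91 and 2.59. The genes thus lay close together in replicates 2 and 3, and Sprn lay higher in replicates 1 and 4.

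RPF counts also followed GC content and length differently from library to library. This trend was estimated as a loess curve over all genes in each library. At the GC content and length of Sprn it lay at 0.012, -0.21, -0.21 and 0.12 (log2) in basal RPF replicates 1 to 4, so that the replicates with the lowest Sprn RPF were those with the lowest trend. At the values of Prnp it lay between -0.093 and 0.044 in the same libraries. With the trend removed from both libraries, the basal TE of Sprn was 0.54, -0.29, 0.10 and 0.53 (0.22 ± 0.40, SD, n = 4), and that of Prnp was 1.10 ± 0.16 (SD, n = 4). The SD of Sprn thus went from 0.61 to 0.40, and that of Prnp changed little.

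**Figure D2:**
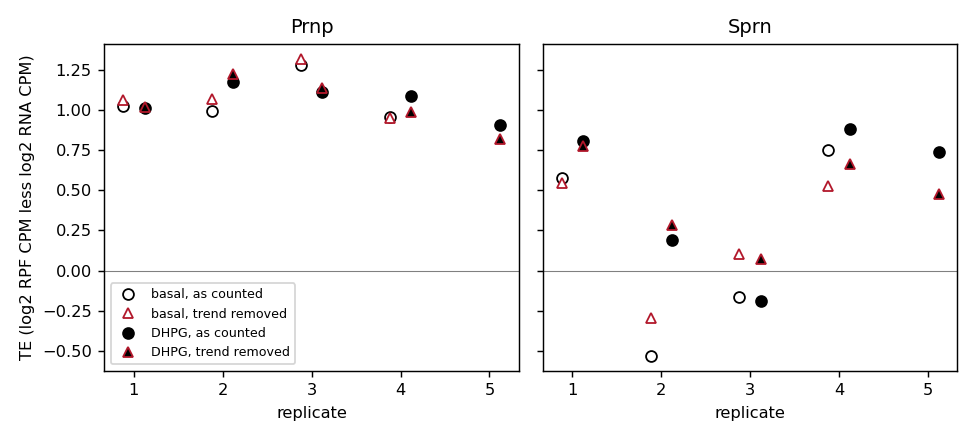
TE (log2 RPF CPM less log2 RNA CPM) of Prnp and Sprn in each replicate, with basal as open and DHPG as filled symbols; black circles are values as counted and red triangles those with the GC content and length trend removed. Prnp lies near 1 throughout, whereas Sprn ranges from -0.53 to 0.88 as counted and from -0.29 to 0.78 with the trend removed.

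Sprn RPF was higher after DHPG in 5 of 5 pairs. The log2 differences (DHPG minus basal) were 0.19, 0.55, 0.015, 0.27 and 0.29 in pairs 1 to 5, a mean of 0.26 ± 0.19 (SD, n = 5). The edgeR fit with the pairs as a block gave 0.26, or 1.196-fold. This is at percentile 98.1 of 13208 genes tested, whose median was 0.0031. Pair 2 had the largest difference and pair 3 a difference whose 95% interval from counting error alone, -0.082 to 0.11, included 0. In the other 4 pairs the interval lay above 0, from a lower limit of 0.028 in pair 1 to one of 0.43 in pair 2. The SD between pairs (0.19) exceeded the root mean square SD from counting (0.061), and these intervals cover counting error only. Over all genes, 5.16% had a higher RPF in every pair and 0.22% passed an adjusted p of 0.05 in edgeR. As Sprn was selected on this contrast, nothing is read from its place among them.

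Sprn RNA showed no such direction. Its log2 differences were -0.045, -0.17, 0.039 and 0.14 in pairs 1 to 4 (mean -0.0093 ± 0.13, SD, n = 4), and each of the 4 counting intervals included 0. In the RNA table, 0.00773% of genes passed an adjusted p of 0.01 and 8.67% were higher in every pair. The TE of Sprn differed by 0.23, 0.72, -0.024 and 0.13 in pairs 1 to 4, with a fitted value of 0.27. Pair 2 thus had both the largest RPF difference and the lowest RNA difference. The fitted TE difference was 0.14 without replicate 2, and over all genes 0% passed an adjusted p of 0.05 for TE.

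Prnp RPF was higher after DHPG in 4 of 5 pairs and by less than Sprn RPF. The log2 differences were 0.095, 0.19, -0.069, 0.23 and 0.099 (mean 0.11 ± 0.11, SD, n = 5). The fitted value was 0.11, or 1.08-fold, at percentile 88.5 of the genes tested. Its RPF counts are large enough that counting error is small (root mean square SD 0.021). All 5 counting intervals excluded 0, with pair 3 below it (-0.099 to -0.038). Prnp RNA differed by 0.11, 0.012, 0.095 and 0.096 (mean 0.077 ± 0.044, SD, n = 4), with a fitted value of 0.078. It was higher in 4 of 4 pairs, but the counting interval of pair 2 (-0.078 to 0.10) included 0. With the trend of counts with GC content and length removed, pair 2 was at -0.018 and 3 of 4 pairs were higher. The Prnp TE differed by -0.010, 0.18, -0.16 and 0.13, with a fitted value of 0.030. Without replicate 3 the fitted TE difference was 0.081 and without replicate 2 it was -0.012, and with the GC content and length trend removed it was -0.014, so no direction is given for it.

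**Figure D3:**
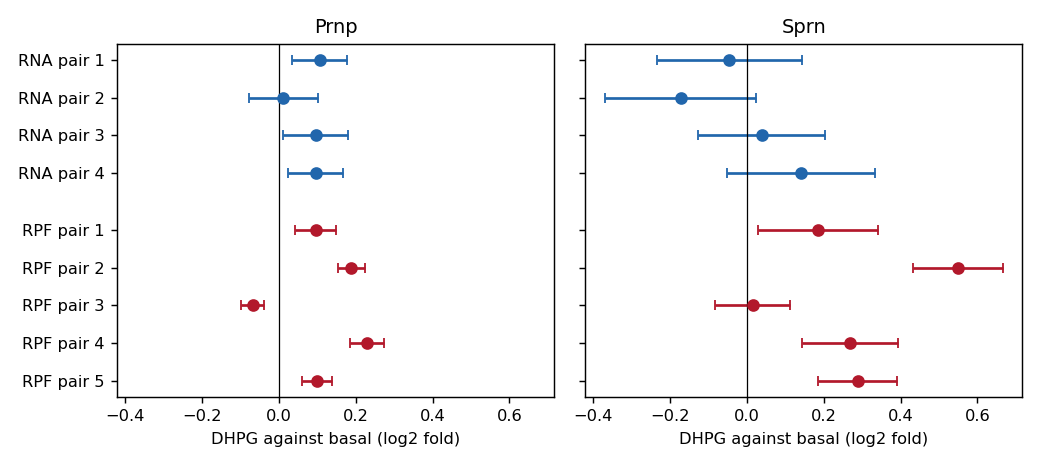
Log2 difference between DHPG and basal in each replicate pair for Prnp and Sprn, RNA in blue and RPF in red, on a common axis. Bars are 95% intervals from counting error alone; Sprn RPF lies above 0 in 5 of 5 pairs and Prnp RPF in 4 of 5, with pair 3 the lowest for both genes.

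The genes can be compared within a library without any scaling between libraries. In basal RPF there were 11.1, 7.87, 9.81, 12.0 and 13.7 Sprn counts per 100 Prnp counts in replicates 1 to 5, and in DHPG RPF 11.8, 10.1, 10.4, 12.3 and 15.7. The ratio was higher after DHPG in each of the 5 pairs, but the groups overlapped and in pairs 1, 3 and 4 so did the 95% exact counting intervals. As Sprn was selected on its RPF difference in these pairs, nothing is read from this direction. The ratio also keeps the GC content and length trend, which differed between the genes. In pair 2 the trend between DHPG and basal RPF was 0.13 for Sprn and 0.048 for Prnp. The log2 difference of Sprn less that of Prnp was 0.090, 0.36, 0.084, 0.038 and 0.19 in pairs 1 to 5 (mean 0.15 ± 0.13, SD, n = 5). In RNA the ratio was 15.1, 22.7, 26.7 and 13.8 in basal replicates 1 to 4 and 13.6, 20.0, 25.6, 14.2 and 17.6 in DHPG replicates 1 to 5, so the ratio differed more between replicates than between treatments.

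**Figure D4:**
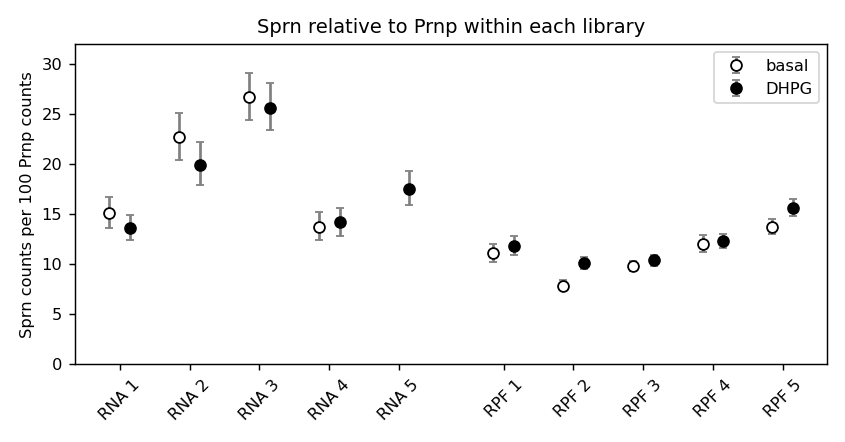
Sprn counts per 100 Prnp counts in each RNA and RPF library (linear axis from 0), basal open and DHPG filled, with 95% exact counting intervals. In RPF the filled point lies above the open one in every pair; in RNA replicates 2 and 3 lie above replicates 1 and 4 in both treatments.

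The GC content and length trend moved with the RPF difference of Sprn. Between DHPG and basal libraries the trend at Sprn's GC content and length was 0.032, 0.13, 0.013, 0.073 and 0.12 in pairs 1 to 5, above 0 in each pair, lowest in pair 3 and highest in pair 2. With the trend removed, Sprn RPF differed by 0.15, 0.42, 0.0017, 0.19 and 0.17 (mean 0.19 ± 0.15, SD, n = 5), and the fitted value was 0.18 in place of 0.26. Prnp RPF then had a fitted value of 0.078 in place of 0.11. The part of the trend in these differences was not tested further.

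**Figure D5:**
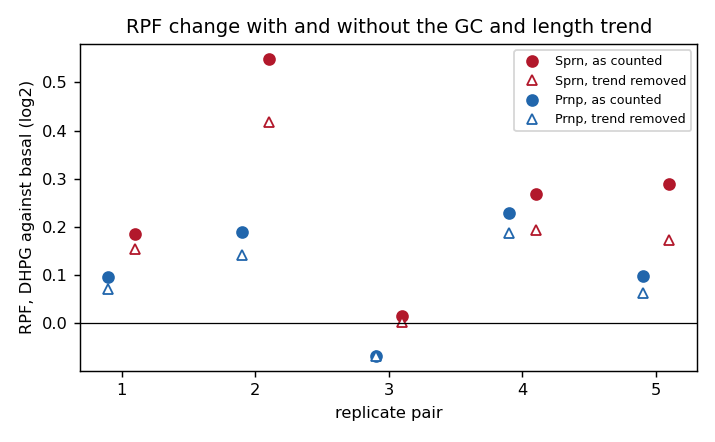
RPF log2 difference between DHPG and basal in each replicate pair, as counted (filled circles) and with the GC and length trend removed (open triangles), Sprn in red and Prnp in blue. Removing the trend lowers the Sprn value in every pair, by the most in pairs 2 and 5, and leaves pair 2 the highest.

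Some tissue markers also moved between the paired libraries. Of 14 thalamus markers, a list drawn up with earlier results known, 13 were tested in RPF. After DHPG 12 were higher (92.3%, against 51.4% of all genes) and 6 passed the threshold, against 0.22% of all genes. Their medians were 0.23, 0.63, 0.43, 0.39 and -0.35 in pairs 1 to 5. Their summed level was 311 to 390 CPM in basal and 327 to 459 CPM in DHPG RPF libraries, and each marker had counts in both groups. Over the same pairs the Sprn RPF differences were 0.19, 0.55, 0.015, 0.27 and 0.29. Medians of 6 oligodendrocyte markers were 0.12, 0.22, -0.0064, 0.21 and -0.11, with summed levels of 3988 to 8389 CPM in basal and 4599 to 9449 CPM in DHPG RPF libraries and no marker at 0. Medians of 5 endothelial markers were 0.28, -0.78, -0.22, 0.041 and 0.071 in RPF and 0.29, -0.74, -0.11 and -0.074 in RNA. These were lowest in pair 2 in both assays. Their summed level was 33.6 to 51.7 CPM in basal and 30.1 to 48.1 CPM in DHPG RPF libraries. Medians of 5 neuron markers were 0.044, 0.10, 0.038, -0.039 and -0.022 in RPF and 0.060, 0.0068, -0.0025 and 0.22 in RNA. In RPF those of 6 astrocyte markers were 0.055, 0.024, 0.071, 0.042 and 0.072. Those of 6 microglia markers were 0.16, 0.0079, 0.033, 0.22 and 0.0062, and those of 6 dentate markers -0.0049, 0.11, -0.048, -0.051 and -0.00035. Pair medians of the interneuron, CA1, CA3 and choroid plexus lists are not given here. In RNA the thalamus medians were 0.19, 0.49, 0.38 and 0.53 in pairs 1 to 4, and the oligodendrocyte medians 0.10, 0.22, 0.12 and 0.21. The Prnp RNA differences of these pairs were 0.11, 0.012, 0.095 and 0.096. The part of tissue content in the Sprn and Prnp values was not tested.

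The neighbouring genes were read for signal that could be shared with the members. Prnd, which starts 12431 bases downstream of Prnp, had 0 to 3 counts in RNA and 0 to 4 in RPF libraries, close to the 3 counts that a count of 0 allows, and was too low to be tested. Prn, a read-through gene that overlaps Prnp by 28473 bases, had 0 to 1 counts in RNA and 0 to 9 in RPF, and reads that fit both genes could not be separated here. Mtg1, a mitochondrial ribosome-associated GTPase encoded on the opposite strand, overlaps the 3′ end of Sprn by 159 bases, and the strand setting of the counting is not given in the sources used here. Mtg1 had 20.7 ± 4.03 CPM in basal RNA (SD, n = 4) and 21.5 ± 2.70 CPM in basal RPF (SD, n = 5). Its log2 fold changes after DHPG were -0.19 in RNA (adjusted p = 0.689 in edgeR) and -0.090 in RPF (adjusted p = 0.655). Its overlap with Sprn lies outside the Sprn coding sequence on which RPFs were counted. Olfr522, the next gene beyond the 5′ end of Sprn, had 0 counts throughout.

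Proteins that bind, cut, anchor or resemble the prion protein were followed as a network of 122 genes, chosen with earlier results of these data known, of which 115 were tested. None passed the threshold in RNA, RPF or TE in edgeR (0 of 115 in each). At an unadjusted p under 0.05, 13 were higher and 1 lower in RNA (8.02% of all genes had such a p), 25 higher and 0 lower in RPF (10.8% of all genes), and 3 higher and 4 lower in TE (6.78%). In RPF 94 of the 115 were higher after DHPG (81.7%, against 51.4% of all genes), with a median of 0.046 against 0.0031 over all genes. In RNA 80 were higher (69.6%, against 52.1% of all genes), with a median of 0.065 against 0.0068. In TE 57 were higher (49.6%, against 49.7% of all genes), with a median of -0.0027 against -0.0011. DESeq2 with the block also called 0 of the network in RNA, RPF and TE. Over all genes it called 0% in RNA and TE and 1.96% of the 1429 genes it gave an adjusted p in RPF, of which 26 were network genes. ComBat followed by DESeq2 called 3 of 66 network genes with an adjusted p in RNA (Gpc1, Pigq and Thy1), where 1.8% of 5662 genes were called. In RPF it called 10 of 56 (App, Cntn2, Cntn4, Dpp6, Grin1, Lrp1, Ly6e, Ncam1, Slc39a12 and Thy1), where 9.53% of 4502 genes were called. Without replicate 3, edgeR called 1 of 115 in RPF (Cntn2), against 0.54% of all genes.

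Among 16 tested surface and signalling partners of the prion protein, 12 were higher in RPF (75%, against 51.4% of all genes) and 5 had an unadjusted p under 0.05 (31.2%, against 10.8%). In RNA 13 were higher (81.25%, against 52.1%) and in TE 7 (43.75%, against 49.7%). Grm5, which encodes mGluR5, a receptor that DHPG acts on and a coreceptor described for the prion protein, had 384 ± 29.8 basal and 390 ± 39.3 DHPG RPF CPM (SD, n = 5). Its log2 fold change was 0.022 in RPF (adjusted p = 0.846 in edgeR) and 0.00027 in RNA (adjusted p = 0.999). Fyn, a Src family kinase linked to prion protein signalling, had -0.013, and Ncam1, an adhesion molecule that binds the prion protein, 0.072. Lrp1, an endocytic receptor, had the smallest p of this list in RPF with 0.079 (adjusted p = 0.317 in edgeR). Rpsa, the ribosomal laminin receptor protein whose many pseudogenes make its counts uncertain, had 0.011, and the cochaperone gene Stip1 had -0.052.

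Of 9 tested proteases and partners that cut the prion protein, APP or Notch, 8 were higher in RPF (51.4% of all genes were) and 1 had an unadjusted p under 0.05, a share of 11.1% that is close to the 10.8% of all genes. In RNA 8 were higher (88.9%, against 52.1% of all genes) and in TE 4 (44.4%, against 49.7%). Adam10, the main sheddase of the prion protein, had -0.014 in RPF, and Bace1, the beta-secretase, had 0.18 in RNA (adjusted p = 0.560 in edgeR) and 0.038 in RPF. App, whose product Bace1 cuts, had 0.067 in RPF. Ncstn, a gamma-secretase subunit, had 0.083 in RPF (adjusted p = 0.420 in edgeR). 

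The GPI anchor that both prion family proteins carry is built by an enzyme pathway of which 26 genes were tested. In RPF 21 were higher (80.8%, against 51.4% of all genes), and 3 had an unadjusted p under 0.05, a share of 11.5% that is close to the 10.8% of all genes. In RNA 17 were higher (65.4%, against 52.1% of all genes) and in TE 14 (53.8%, against 49.7%). Pigp, a subunit of the enzyme of the first step, had 0.17 (higher in 5 of 5 pairs, adjusted p = 0.185 in edgeR). Pigq, a subunit of the same enzyme, had 0.21 in RNA (adjusted p = 0.545 in edgeR) and 0.0039 in RPF. Among 46 tested genes of other GPI-anchored surface proteins, 40 were higher in RPF (87.0%, against 51.4% of all genes) and 12 had an unadjusted p under 0.05 (26.1%, against 10.8%). In RNA 32 were higher (69.6%, against 52.1% of all genes) and 10 had such a p (21.7%, against 8.02%). In TE 21 were higher (45.7%, against 49.7% of all genes), with a median of -0.034 against -0.0011. Thy1, an abundant neuronal member, had 0.30 in RNA (standard error 0.075, higher in 4 of 4 pairs, adjusted p = 0.282 in edgeR) and 0.083 in RPF (adjusted p = 0.264). Gfra4, a receptor of the GDNF family, had 0.18 in RPF (adjusted p = 0.194 in edgeR), the smallest p of that list.

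Metal-related genes gave 2 further lists. Of 7 tested LIV-1 type zinc transporters, the family from which prion genes are thought to descend, 5 were higher in RPF (71.4%, against 51.4% of all genes). In RNA 2 of the 7 were higher (28.6%, against 52.1% of all genes), with a median of -0.035 against 0.0068. In TE 5 were higher (71.4%, against 49.7% of all genes). In RPF Slc39a6 had 0.040 and Slc39a10 had -0.024, whereas Slc39a12 had 0.090 (higher in 5 of 5 pairs, adjusted p = 0.317 in edgeR). Of 11 tested copper handling genes 8 were higher in RPF (72.7%, against 51.4% of all genes). The smallest p in RPF was that of Cox17, a copper chaperone for cytochrome c oxidase, with 0.14 (higher in 5 of 5 pairs, adjusted p = 0.253 in edgeR). In RNA 8 of the copper genes were higher (72.7%, against 52.1% of all genes) and in TE 6 (54.5%, against 49.7%). Commd1, which takes part in copper export, had -0.25 in RNA and was lower in 4 of 4 pairs (edgeR, adjusted p = 0.555).

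The genes whose levels followed each member most closely were ranked by Pearson's r of log2 CPM over the 19 libraries, with each gene centred within RNA and within RPF, among 12690 genes. These libraries share replicate numbers, taken as batches, so r is given as a description. For Prnp the closest were Srrt (0.83), Dkk3 (0.81), H3f3b (0.79), Tbc1d5 (0.79) and Pgrmc1 (0.79), with coding GC contents from 48.6% to 59.0%. H3f3b encodes histone H3.3 and has close copies with which it may share reads. For Sprn they were Kank3 (0.91), Lrrc73 (0.91), Nptxr (0.90), Chchd10 (0.89) and F8a (0.88), with coding GC contents from 61.7% to 68.2%, all above the median of 52.1% over coding sequences. Nptxr encodes the neuronal pentraxin receptor, and its locus overlaps that of Npcd. Between Prnp and Sprn the r was -0.76 over the RNA libraries and 0.48 over the RPF libraries. The r of -0.15 over the 19 libraries joins these opposite values.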

How the data were processed

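Per the labels and the study's methods, the authors trimmed reads (cutadapt), removed rRNA and tRNA reads (Bowtie2), aligned to mm10 (TopHat2), removed duplicates by molecular identifiers and deposited RSEM expected counts per gene as whole numbers, RPFs of 26 to 34 nt on coding sequences without 30 nt at either end. Of the count columns, 12 matched no sample and were not used. DHPG was compared with basal in edgeR 4.0.16 (R 4.3.3, TMM, filterByExpr, quasi-likelihood F test, Benjamini-Hochberg adjustment over all genes tested). Replicate number, taken as the study's batch, was a block. Same-numbered libraries deviated together (correlations 0.308 to 0.741 in RNA, 0.259 to 0.523 in RPF). DHPG RNA replicate 5 had no basal partner and entered the RNA and TE fits only through filtering, scaling and dispersion. Without replicate 5 the fitted RNA change was 0.0708 for Prnp and -0.0145 for Sprn. TE was the interaction of library type and treatment over 19 libraries, including the RPF libraries of replicate 5. Thresholds were an adjusted p of 0.01 for RNA and 0.05 for RPF and TE. Log2 CPM used a prior count of 2. Sequences and GC content came from GENCODE M21, matched by symbol for 96.0% of genes, and the GC and length fit (loess, span 0.5) left out the rest. Only the edgeR fits were tested on simulated counts, with RPF changes larger than the fitted ones of Prnp and Sprn. DESeq2, ComBat and the basal TE were not tested in this way.

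The members, lists and alternatives were chosen with earlier results of these data known. Named genes were the members, their neighbours, 13 fixed network genes (1 is not reported here), network genes past a threshold or with the smallest p of their list in an assay, and the 5 genes most like each member. Alternatives were DESeq2 1.42.0 size factors, no filter, at least 10 counts in every library, no block, DESeq2 with the block, ComBat (sva 3.50.0; means only in RNA, where replicate 5 is 1 library) with DESeq2, prior count 0.5, the GC and length trend, and each replicate left out. Removing the trend from basal TE was chosen after seeing the data.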

Additional observations from a re-analysis of the deposited data

Results flagged for a closer look

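The Prnp RNA difference in pair 2 was 0.012 (log2), far from the other 3 pairs, which lay between 0.095 and 0.11. Of 22 groups of values screened in this way 1 stood out, where chance gives 1.1.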

How the results depend on the processing

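All 72 alternative values of the Prnp and Sprn differences lay within 1 SD of the pairs of the value reported. That range is wide, and leaving out a pair can hardly move a mean beyond it, so this is no measure of stability. The Sprn TE difference, for example, was 0.27 as reported and 0.14 without replicate 2. Without the replicate block, which ignores the pairing, Sprn RPF was 0.26 and Prnp RPF 0.11. With each replicate left out in turn, Sprn RPF ran from 0.18 (without replicate 2) to 0.33 (without replicate 3), Prnp RPF from 0.077 to 0.15, and Sprn RNA from -0.058 to 0.045. Basal TE per kb was 2.69 for Prnp and 3.29 for Sprn. With a replicate left out, basal TE ran from 0.99 to 1.10 for Prnp and from -0.039 (without replicate 4) to 0.39 (without replicate 2) for Sprn.

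Counts of calls moved more. Over all genes, RNA calls (1) were 7 with no filter, 0 with at least 10 counts, 0 with no replicate block, 0 with DESeq2 and the block, 102 with ComBat and DESeq2, and 0 to 22 with a replicate left out (2 without replicate 1, 22 without 2, 0 without 3 and 2 without 4). RPF calls (29) were 96 with no filter, 0 with no replicate block, 429 with ComBat and DESeq2, and 3 to 71 with a replicate left out (10 without replicate 1, 3 without 2, 71 without 3 and 50 without 5). TE calls (0) were 3 with no filter and 0 to 8 with a replicate left out. Network calls (0) were 3 in RNA and 10 in RPF with ComBat and DESeq2, and 0 to 1 in RPF with a replicate left out. The causes were not tested. Calls of TE were not counted under ComBat.

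Sprn had at least 402 counts in every library, and the SD of its RPF difference between pairs (0.19) exceeded that from counting (0.061). Basal RNA of replicate 5 was not analysed here, and pair 5 has no TE difference. Counts per gene do not show where on the coding sequence the ribosomes lay.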
